A study of Mus musculus with 18 samples.

Results

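The genes described here encode UDP-glucuronosyltransferases (UGTs) and cytosolic sulfotransferases (SULTs), the enzymes that conjugate quercetin, a flavonol of plant foods. They were chosen by name, as every probe set of the array whose gene symbol begins with Ugt1, Ugt2, Ugt3 or Sult, with the probe set of the highest mean kept for each gene. This gave 25 features from 31 probe sets, 12 of UGTs and 13 of SULTs, out of 18195 features on the array. Of the 25, 23 named a single gene and 2 were shared. One shared feature, called Ugt1a (shared) below, named 8 Ugt1a genes, namely Ugt1a1, Ugt1a2, Ugt1a5, Ugt1a6a, Ugt1a6b, Ugt1a7c, Ugt1a9 and Ugt1a10, and the other named Ugt2a1 and Ugt2a2. Liver RNA was taken from 18 male mice after 20 weeks of feeding that began at 5 weeks of age. The groups were 6 mice on AIN93G alone (control), 6 on AIN93G with 0.05% quercetin and 6 on AIN93G with 1% quercetin, and the RNA of each mouse was on an array of its own. The protocol gives the strain as C57BL/6J while the strain label reads C56BL/6J, and the labels name no allele or other agent. Each diet was given to 12 mice in cages of 3, and the cage of each mouse is not in the labels, so cage and diet effects cannot be told apart here.

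UGTs sit in the membrane of the endoplasmic reticulum and join glucuronic acid, taken from UDP-glucuronic acid, to hydroxyl groups of bilirubin, steroids, bile acids, drugs and flavonoids. SULTs are cytosolic and transfer sulfate from the donor PAPS to phenols, steroids, catecholamines and bile acids. In the liver both reactions make a lipophilic compound soluble enough to be exported into bile or blood, and in humans UGT1A9, UGT1A1 and SULT1A1 are among the enzymes known to act on quercetin. The Ugt1a transcripts differ in their first exon and share the remaining ones, whereas the Ugt2b transcripts come from separate genes that lie close together.

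All 33 gene symbols behind the features were found in the RefSeq annotation of GRCm38.p6. The 8 Ugt1a genes lie on chromosome 1. A run of 13 lies on chromosome 5 in the order Ugt2b34, Ugt2b1, Ugt2b35, Ugt2b36, Ugt2b5, Ugt2b37, Ugt2a3, Ugt2b38, Ugt2a1, Ugt2a2, Sult1b1, Sult1d1 and Sult1e1. The sequences upstream of Ugt2b37, Ugt2b38 and Ugt2b5 in that run are printed here because the first pair varied most between mice, and varied together, while Ugt2b5 was among the steadiest members. The choice was made after those values were seen. Each sequence is the 250 bases before the annotated transcript start, from RefSeq on GRCm38.p6, all on the minus strand and read 5′ to 3′. They lie at chr5:87254789-87255038 for Ugt2b37, chr5:87424204-87424453 for Ugt2b38 and chr5:87140341-87140590 for Ugt2b5. Capitals mark the longest run of bases that all 3 share.
Ugt2b37: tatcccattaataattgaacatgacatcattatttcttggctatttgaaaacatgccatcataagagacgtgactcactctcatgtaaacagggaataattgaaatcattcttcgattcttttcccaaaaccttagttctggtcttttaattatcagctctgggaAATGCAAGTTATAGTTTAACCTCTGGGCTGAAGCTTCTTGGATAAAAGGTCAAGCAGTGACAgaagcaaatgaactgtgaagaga
Ugt2b38: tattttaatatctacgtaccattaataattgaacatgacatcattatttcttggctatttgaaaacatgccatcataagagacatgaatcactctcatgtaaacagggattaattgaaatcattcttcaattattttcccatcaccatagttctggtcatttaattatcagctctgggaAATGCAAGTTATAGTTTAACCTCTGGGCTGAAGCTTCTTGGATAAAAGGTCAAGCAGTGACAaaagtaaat
Ugt2b5: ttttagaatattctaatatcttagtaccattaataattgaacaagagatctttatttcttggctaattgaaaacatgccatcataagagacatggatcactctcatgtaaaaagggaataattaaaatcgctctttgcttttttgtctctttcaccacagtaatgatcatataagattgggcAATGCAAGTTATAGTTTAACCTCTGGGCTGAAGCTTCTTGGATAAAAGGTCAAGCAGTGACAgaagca

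The shared run was 62 bases long. It lay from -85 to -24 relative to the transcript start in Ugt2b37, from -71 to -10 in Ugt2b38 and from -68 to -7 in Ugt2b5. Among 32851 promoter windows of mouse genes, each from 250 bases before to 50 after a start, it was present in 3, those of these genes (0.00913%). Over the same windows the identity was 91.3% between Ugt2b37 and Ugt2b38, 87.0% between Ugt2b5 and Ugt2b38 and 82.7% between Ugt2b5 and Ugt2b37. All other pairs of Ugt2b windows had 58.0% to 69.0%. Ugt2b5 thus stood closer to the variable pair than to the other Ugt2b genes in this window. Windows were found for 29 of the 33 symbols, 32 windows in all, and were searched on both strands for short motifs. The full consensus of HNF1, a hepatocyte transcription factor, occurred in 0 of the 32 windows and in 0.00913% of all windows. The antioxidant response core TGACNNNGC occurred in 0 of 32 and in 12.4% of all windows. The aryl hydrocarbon receptor core GCGTG occurred in 5 of 32, in windows of Sult1b1, Sult1d1, Sult2b1 and Ugt1a5, and in 32.4% of all windows.

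Values are log2 of the intensity plus 16 after the arrays were scaled to a common 75th percentile, and are given as mean ± SD of 6 mice. A change is the difference of 2 diet means ± SE with its 95% interval from limma. A call needed a Benjamini-Hochberg adjusted p under 0.05 over the 12882 features above the filter on dim signal. Before scaling, the 75th percentile of the arrays spanned 74.55 to 112.4 in deposited intensity, a range of 1.507 times. The tissue label was checked with 5 measured hepatocyte markers (Alb, Apoa1, Ttr, Cyp2e1 and Cps1), whose summed scaled intensity was 54250 to 64630 in control livers, 46530 to 69530 at 0.05% and 47050 to 62640 at 1%. Summed neutrophil markers spanned 94.78 to 1200 in control livers, 67.61 to 174.3 at 0.05% and 199.4 to 765.4 at 1%, and their part in the results below was not tested. In whole liver, fewer cells of a type and less RNA per cell cannot be told apart.

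Of the 25 features, 18 passed the filter, all 12 of the UGTs and 6 of the SULTs. Ugt2a1/Ugt2a2 (shared) passed only narrowly, with a mean of 4.703 against the filter value of 4.689. Its deposited intensity was 2.478 to 18.58, as dim as SULTs that did not pass. The 7 SULTs that did not pass were Sult1c1, Sult1e1 (estrogen sulfotransferase), Sult2a2, Sult2b1 (cholesterol sulfotransferase), Sult3a1, Sult4a1 (a brain form) and Sult6b1. Their highest deposited intensity on any array lay between 3.878 for Sult2b1 and 20.66 for Sult4a1. They had no test, and the counts that follow leave them out.

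**Figure D1:**
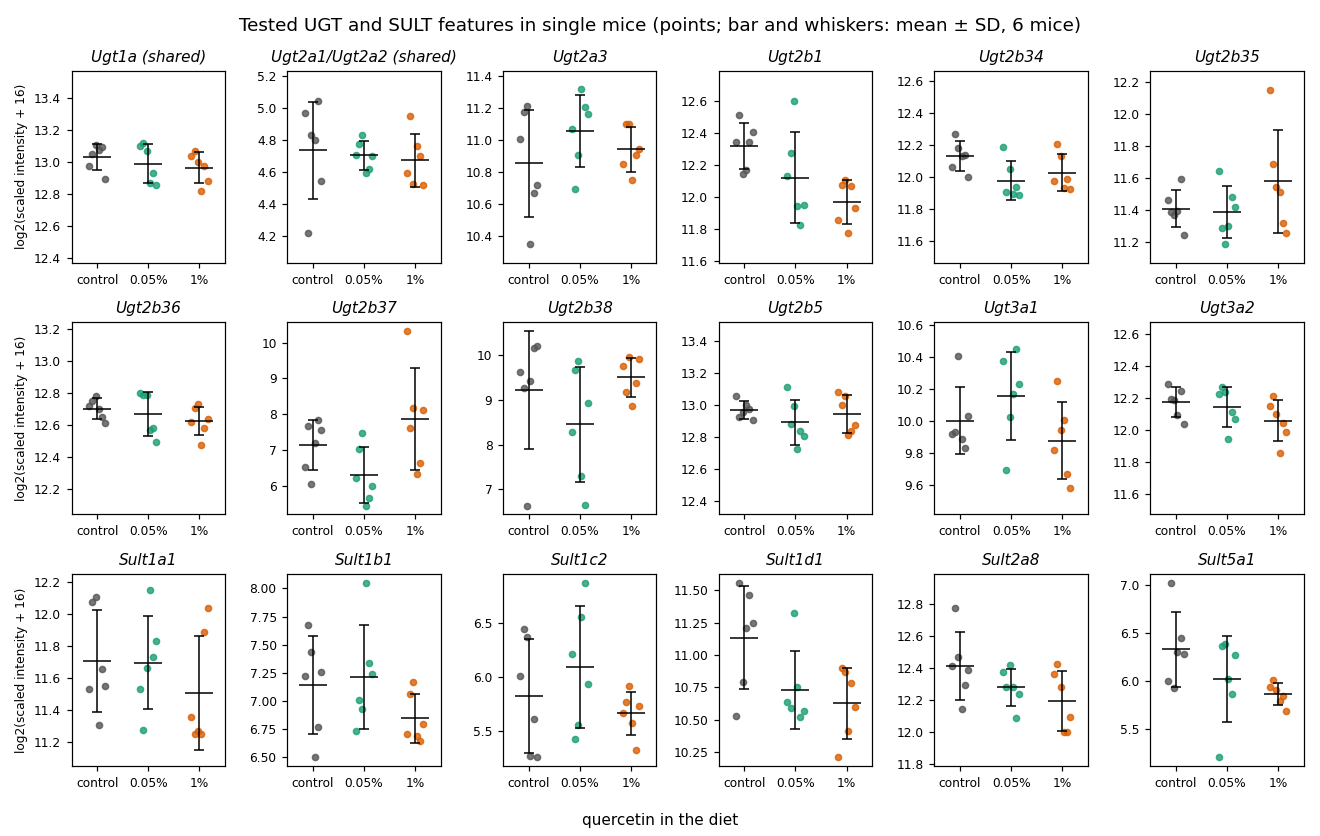
Log2 of scaled intensity plus 16 (vertical axis, a separate scale in each panel) in single mice fed control, 0.05% or 1% quercetin diet, for the 18 tested features, with a bar at the mean and whiskers of 1 SD over 6 mice. After scaling, Ugt2b1 at 1% lies below all control mice, while Ugt2b37 and Ugt2b38 spread over several log2 units.

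No UGT or SULT was called in the comparison of 1% quercetin with control, in which 1 of 12882 features was called (0.00776%), the transcription factor gene Tead1. At an unadjusted p under 0.05, 3 of the 18 were lower and 0 were higher, beside 4.74% lower and 4.01% higher among all tested features. The 3 were Ugt2b1, Sult1d1 and Sult5a1. Of the 1127 features with such a p (8.75%), 45.8% were higher, and of the 716 found on values as deposited, without scaling, 21.9% were higher. The fitted change was below 0 for 14 of 18 members (12 after quantile normalization), with a median of -0.11, beside 52.7% of all features, whose median was -0.01. The 5 hepatocyte markers also all had a change below 0, with a median of -0.095, and of -0.0874 at 0.05% against control. Whether the members' changes at 1% go with those of the markers was not tested. All 6 tested SULTs had a change below 0 (median -0.26), as did 8 of 12 UGTs (median -0.06).

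Ugt2b1 encodes a hepatic UGT of the 2B subfamily, which conjugates steroids and foreign compounds. Its lowest, median and highest values were 11.78, 12.00 and 12.11 at 1%, against 12.14, 12.34 and 12.51 in control livers. After scaling, all 6 mice at 1% lay below all 6 controls, and of all features 0.264% were lower and 0.303% higher at 1% with no overlap. In deposited intensity the 2 groups overlapped, with 4240.6 in 1% replicate 4 and 4180.2 in control replicate 4. The scaled mean was 11.97 ± 0.13 at 1% and 12.32 ± 0.14 in control livers. The change was -0.35 ± 0.12 (95% interval -0.59 to -0.11), or 0.785 times, and was not called (limma, adjusted p = 0.414). At 0.05% the values were 11.83, 12.04 and 12.60, on both sides of the control range.

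Sult1d1 encodes a sulfotransferase that in mice acts on dopamine and other catecholamines. Its values were 10.21, 10.69 and 10.90 at 1%, against 10.53, 11.23 and 11.56 in control livers. The groups overlapped, with 2 mice at 1% below every control. The change was -0.50 ± 0.18 (interval -0.88 to -0.13; adjusted p = 0.423). The second probe set of Sult1d1 gave -0.53, and its values followed those of the first over the 18 mice with r = 0.967. Sult5a1, on chromosome 8, had values of 5.68, 5.88 and 6.01 at 1%, against 5.92, 6.29 and 7.02 in control livers. Here 4 of 6 mice at 1% lay below all controls, and the change was -0.47 ± 0.19 (adjusted p = 0.476). Sult5a1 was dim, at 21.06 to 108.4 in deposited intensity over the 18 mice. Sult2a8 encodes a bile acid sulfotransferase of mouse liver. Its values were 12.00, 12.19 and 12.42 at 1%, against 12.14, 12.40 and 12.78 in control livers, with a change of -0.22 ± 0.11 (adjusted p = 0.57).

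The shared Ugt1a feature, which holds the counterparts of the human UGTs that act on quercetin, stayed in a narrow range, as did Ugt2b5. Ugt1a1, the bilirubin transferase, Ugt1a9 and Ugt1a6a had no probe set of their own and were read only through Ugt1a (shared). Its values were 12.89, 13.06 and 13.11 in control livers, 12.85, 13.00 and 13.12 at 0.05% and 12.82, 12.98 and 13.07 at 1%. The 3 diets overlapped almost fully. The 1% change was -0.07 ± 0.08, with an interval of -0.23 to 0.09. The other 2 shared Ugt1a probe sets gave 0.06 and 0.04, so the sign depended on the probe set. Ugt2b5 had 12.91, 12.96 and 13.06 in control livers, 12.72, 12.86 and 13.11 at 0.05% and 12.81, 12.94 and 13.08 at 1%. Its 1% change was -0.03 ± 0.08 (interval -0.19 to 0.14), and quantile normalization turned the sign of both this change and that of Ugt1a (shared).

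Sult1a1 is the phenol sulfotransferase of the liver. It had 11.31, 11.61 and 12.11 in control livers, 11.27, 11.70 and 12.15 at 0.05% and 11.25, 11.31 and 12.04 at 1%. The ranges were nearly the same, and the lower median at 1% came with a change of -0.20 ± 0.18 (interval -0.56 to 0.17), which spanned -0.302 to -0.116 when a mouse was left out. Sult1b1, which sulfates thyroid hormones, had 6.50, 7.24 and 7.68 in control livers, 6.74, 7.12 and 8.05 at 0.05% and 6.64, 6.75 and 7.17 at 1%. Its 1% change was -0.30 ± 0.21 (interval -0.73 to 0.14), and -0.19 without control replicate 2. Of the remaining members, the 1% change was 0.09 ± 0.14 for Ugt2a3, 0.17 ± 0.13 for Ugt2b35 and -0.16 ± 0.24 for Sult1c2. It lay between -0.12 and -0.06 for Ugt2a1/Ugt2a2 (shared), Ugt2b34, Ugt2b36, Ugt3a1 and Ugt3a2. Adjusted p-values for these members ran from 0.713 to 0.927. Single mice weighed on several of them. The change was -0.0158 for Ugt2a3 without control replicate 4, 0.0574 for Ugt2b35 without 1% replicate 1 and -0.0415 for Sult1c2 without control replicate 2. It was -0.0438 for Ugt3a1 without control replicate 3, and 0.00191 for Ugt2a1/Ugt2a2 (shared) without control replicate 5. For the same comparison the second probe set of Ugt2b34 gave 0.02, of the opposite sign to the first, and that of Ugt3a1 gave -0.04.

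**Figure D2:**
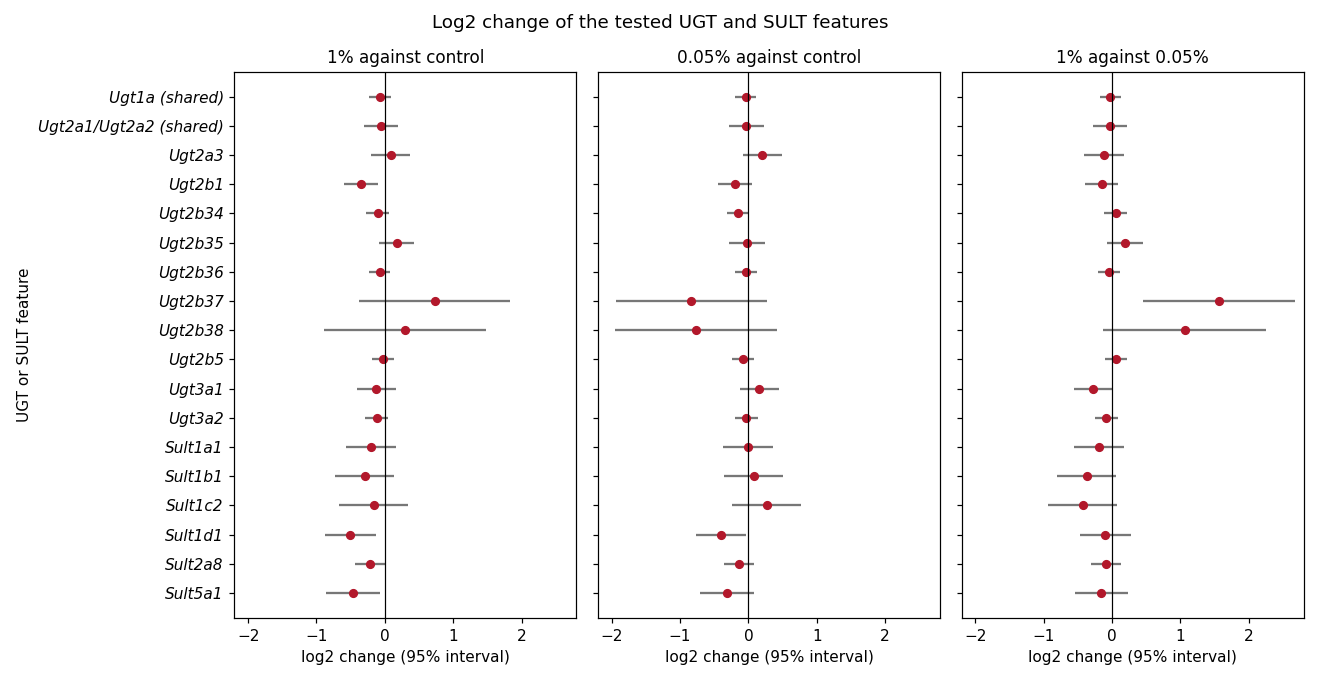
Log2 change of the 18 tested features (points) with 95% intervals (lines) for 1% against control, 0.05% against control and 1% against 0.05%. Most intervals are short and cross 0, and those of Ugt2b37 and Ugt2b38 are several times longer.

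In the comparison of 0.05% quercetin with control, 0 of the 18 members and 0 of 12882 features were called by limma (0%), and 5.11% of all features had an unadjusted p under 0.05. Among the members 1 had such a p, Sult1d1, and it was lower, beside 2.81% lower and 2.3% higher among all features. Its values at 0.05% were 10.52, 10.61 and 11.32, against 10.53, 11.23 and 11.56 in control livers. A single mouse at 0.05% lay below every control, and the change was -0.40 ± 0.18 (adjusted p = 0.929). This comparison and that of 1% share their control livers, so the lower Sult1d1 means at both doses are not separate observations. Ugt2b34 had 11.88, 11.92 and 12.19 at 0.05%, against 12.00, 12.13 and 12.27 in control livers. Sult5a1 had 5.20, 6.14 and 6.39 at 0.05%, against 5.92, 6.29 and 7.02 in control livers. The change was -0.15 ± 0.08 for Ugt2b34, -0.31 ± 0.19 for Sult5a1 and -0.20 ± 0.12 for Ugt2b1, all with an adjusted p of 0.929. Without 0.05% replicate 1 that of Sult5a1 was -0.151. Ugt2b37 had -0.84 ± 0.53. Ugt2b38 had -0.77 ± 0.57, which spanned -1.29 to -0.409 when a mouse was left out, and the changes of the remaining members lay between -0.13 for Sult2a8 and 0.27 for Sult1c2. In all, 14 of 18 members had a change below 0, with a median of -0.04, but 9 of 18 after quantile normalization, with a median of 0.01. Among all features 57.4% had a change below 0, and their median was -0.02.

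Between the 2 quercetin diets Ugt2b37, which lies between Ugt2b5 and Ugt2a3, had the smallest p of the members. Of the 18 members 0 were called by limma (0% of all features), and 9.06% of all features had an unadjusted p under 0.05. Ugt2b37 alone among the members had an unadjusted p under 0.05 and was higher, beside 5.37% higher and 3.69% lower among all features. Its values were 6.34, 7.87 and 10.32 at 1%, against 5.45, 6.11 and 7.47 at 0.05%, and 4 of the 6 mice at 1% lay above all mice at 0.05%. The change was 1.56 ± 0.53 (interval 0.46 to 2.67), or 2.95 times, with an adjusted p of 0.424. Control livers had 6.05, 7.38 and 7.84 with a mean between those of the 2 quercetin diets. Without the mouse at 10.32 the change was 1.07. The change of 1% against control was 0.73 ± 0.53, and 0.24 without that mouse.

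Ugt2b38 also had a higher mean at 1% than at 0.05%. Its values were 8.87, 9.58 and 9.96 at 1%, against 6.65, 8.61 and 9.87 at 0.05%, and the change was 1.06 ± 0.57 (adjusted p = 0.603), or 0.701 without the 0.05% mouse at 6.65. The control livers had 6.63, 9.53 and 10.20, a wider spread than at 1%. Without the control mouse at 6.63, the change of 1% against control was -0.23, in place of 0.29 ± 0.57. Ugt3a1, whose human counterpart uses UDP-N-acetylglucosamine as its sugar donor, had 9.58, 9.88 and 10.25 at 1%, against 9.69, 10.20 and 10.45 at 0.05%. Its change was -0.28 ± 0.14 (adjusted p = 0.562), and its second probe set gave -0.29. Sult1b1 had a change of -0.37 ± 0.21 (adjusted p = 0.618), with 3 of 6 mice at 1% below all mice at 0.05%. Without 0.05% replicate 4 it was -0.203. The changes of the remaining members lay between -0.43 for Sult1c2 (-0.275 without 0.05% replicate 5) and 0.19 for Ugt2b35 (0.0774 without 1% replicate 1). In all, 13 of 18 members had a change below 0 (median -0.08), all 6 SULTs among them, beside 47.7% of all features.

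Over the 3 diets together, a moderated F-test called 0 members and 1 feature of 12882 (0.00776%). An unadjusted p under 0.05 was found for Ugt2b1 (0.0238), Sult1d1 (0.0254) and Ugt2b37 (0.0275), beside 8.59% of all features, and their adjusted p-values were 0.532 to 0.542.

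Single mice differed far more in some members than in others. Within diets the SD of Ugt2b38 was 1.10 and that of Ugt2b37 was 1.02, above 99.7% and 99.6% of all tested features. In deposited intensity Ugt2b38 spanned 80.51 to 1373 and Ugt2b37 33.73 to 1050 over the 18 mice. The neighbouring Ugt2b5 spanned 6056 to 9046, and its SD of 0.11 lay at percentile 4.64. Low spread was shared by Ugt1a (shared) at percentile 2.68, Ugt2b36 at 2.83, Ugt2b34 at 4.73 and Ugt3a2 at 6.1. These steady members are also bright, and the part of brightness in their spread was not tested. Among the SULTs the within-diet SD lay at percentile 94.2 for Sult1c2, 88.8 for Sult1b1, 84.3 for Sult5a1, 80.3 for Sult1d1, 79.4 for Sult1a1 and 27 for Sult2a8.

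**Figure D3:**
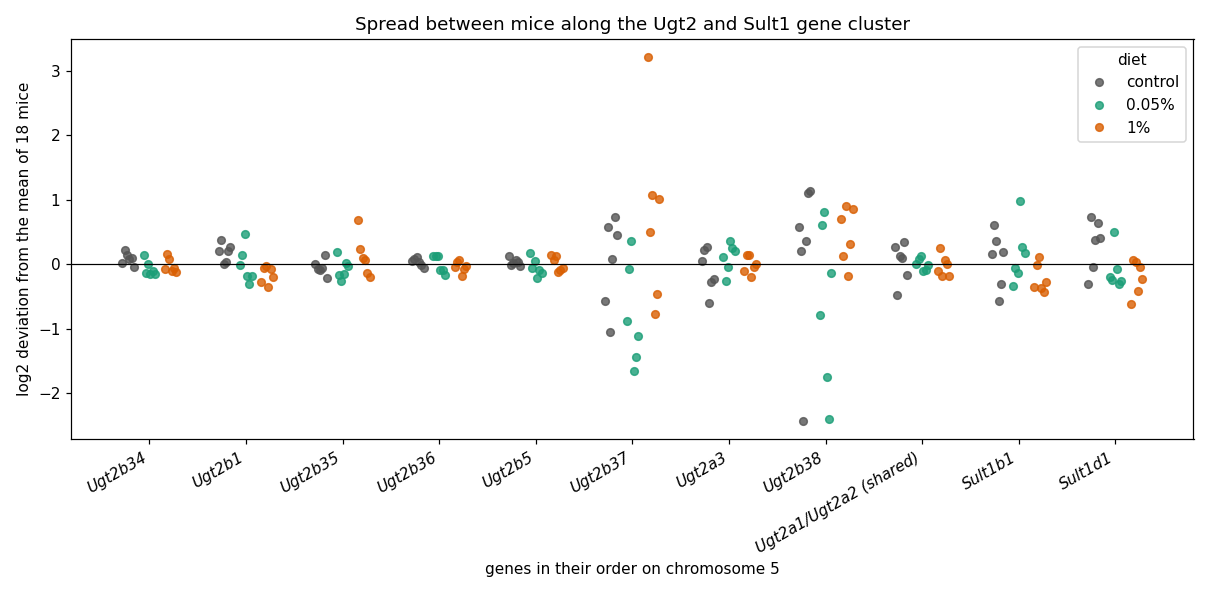
Deviation of each mouse from the mean of the 18 mice (log2, vertical axis) for 11 features in the order of their genes on chromosome 5, coloured by diet. Ugt2b37 and Ugt2b38 spread from below -1 to above 1, while Ugt2b36 and Ugt2b5 stay close to 0.

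Ugt2b37 and Ugt2b38 varied together. Over the 18 mice, with diet means subtracted, Pearson's r was 0.612 (permutation p = 0.00016, adjusted p = 0.0145 over 153 pairs of members) and Spearman's rho was 0.728 (permutation p = 0.00094). It was 0.785 in control livers, 0.889 at 0.05% and 0.671 at 1%, and 0.749 without the 2 mice farthest from the median of Ugt2b37. The control mouse with 6.63 in Ugt2b38 also had the lowest Ugt2b37 of its diet, 6.05. The 0.05% mice with 6.65 and 7.30 in Ugt2b38 had 5.67 and 5.45 in Ugt2b37, the lowest of theirs. The mouse at 1% with 10.32 in Ugt2b37 had 9.77 in Ugt2b38, within the range of its diet, and the highest Ugt2b35 of all mice, 12.15. The probe sequences were not used here, so whether transcripts of one of these similar genes also bound the probes of the other was not tested.

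The 2 mice with the lowest Ugt2b38 had high Ugt3a1 and Sult1c2. The control mouse at 6.63 had 10.41 in Ugt3a1, the highest of its diet, and 6.37 in Sult1c2. The 0.05% mouse at 6.65 had the highest Ugt3a1 and Sult1c2 of all 18 mice, 10.45 and 6.87. The next lowest, the 0.05% mouse at 7.30, had 10.17 in Ugt3a1, below the median of its diet, and 6.56 in Sult1c2. Over all mice r was -0.706 for Ugt2b38 with Ugt3a1 (permutation p = 0.00246, adjusted p = 0.047; rho = -0.614, permutation p = 0.0109) and -0.735 for Ugt2b38 with Sult1c2 (permutation p = 0.00284, adjusted p = 0.0483; rho = -0.668, permutation p = 0.0125). Without the 2 mice farthest from the median of Ugt2b38 these were -0.49 and -0.613. By Spearman's rho neither pair passed (permutation, adjusted p = 0.112 each). The pair with Ugt3a1 also did not pass on values as deposited (permutation, r = -0.508, adjusted p = 0.0851), nor that with Sult1c2 after quantile normalization (permutation, r = -0.736, adjusted p = 0.0581). Within the 1% diet r with Sult1c2 was 0.47, of the opposite sign to -0.623 in control livers and -0.991 at 0.05%.

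In all, 10 of the 153 pairs had an adjusted p under 0.05, 8 of them with a positive r. The count was 44 on values as deposited and 7 after quantile normalization. Pairs of other features were not tested, so it is not known whether this count is particular to these genes. Ugt2a3, a UGT of the same chromosome 5 run, followed Sult1c2 with r = 0.85 (permutation p = 0.00019, adjusted p = 0.0145; rho = 0.86, permutation p = 0.00017) and Sult1b1 with r = 0.801 (permutation p = 0.0005, adjusted p = 0.0191; rho = 0.843, permutation p = 0.00011). Without the 2 mice farthest from the median of Ugt2a3 the values were 0.835 and 0.72. Within single diets r was 0.613 to 0.927 for Sult1c2 and 0.668 to 0.914 for Sult1b1. After quantile normalization they were 0.881 and 0.818. Sult1c2, which is also in a negative pair above, was dim, at 20.73 to 109.5 in deposited intensity over the 18 mice. Ugt1a (shared) followed Ugt3a2 with r = 0.813 (permutation p = 0.00036, adjusted p = 0.0184; rho = 0.814, permutation p = 0.00048) and Ugt2b36 with r = 0.827 (permutation p = 0.00096, adjusted p = 0.0294; rho = 0.818, permutation p = 0.00138). Without the 2 mice farthest from the median of Ugt1a (shared) these were 0.769 and 0.741. The other 2 shared Ugt1a probe sets followed the one read here less closely, with r = 0.32 and 0.478 over all mice, diet means not subtracted. Their correlation with Ugt3a2 and Ugt2b36 was not tested.

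Ugt1a (shared), Ugt2b36 and Ugt3a2 also varied with the array's 75th percentile, in a direction that depended on the scaling. Their scaled values correlated with log2 of it at r = -0.789 for Ugt1a (shared), -0.75 for Ugt2b36 and -0.712 for Ugt3a2. Permutation gave adjusted p of 0.0099, 0.0178 and 0.0178 over 18 members. The scaling divides by this same percentile, so scaled values are not independent of it. On values as deposited r was 0.865, 0.851 and 0.781, and after quantile normalization 0.313, 0.156 and -0.321. After quantile normalization r was 0.356 between Ugt1a (shared) and Ugt3a2 and 0.453 between Ugt1a (shared) and Ugt2b36, with permutation adjusted p of 0.424 and 0.298. It fell from 0.746 to 0.0993 between Ugt2b36 and Ugt3a2 and from 0.742 to 0.37 between Ugt2b5 and Ugt3a2. Between Ugt2b34 and Ugt2b36 it was 0.688 before and 0.667 after (permutation, adjusted p = 0.0494 and 0.0969). For the pair Ugt2b37 and Ugt2b38 it was 0.609 after that normalization, and with the array's 75th percentile they had r of -0.537 and -0.281 (permutation, adjusted p = 0.153 and 0.477).

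**Figure D4:**
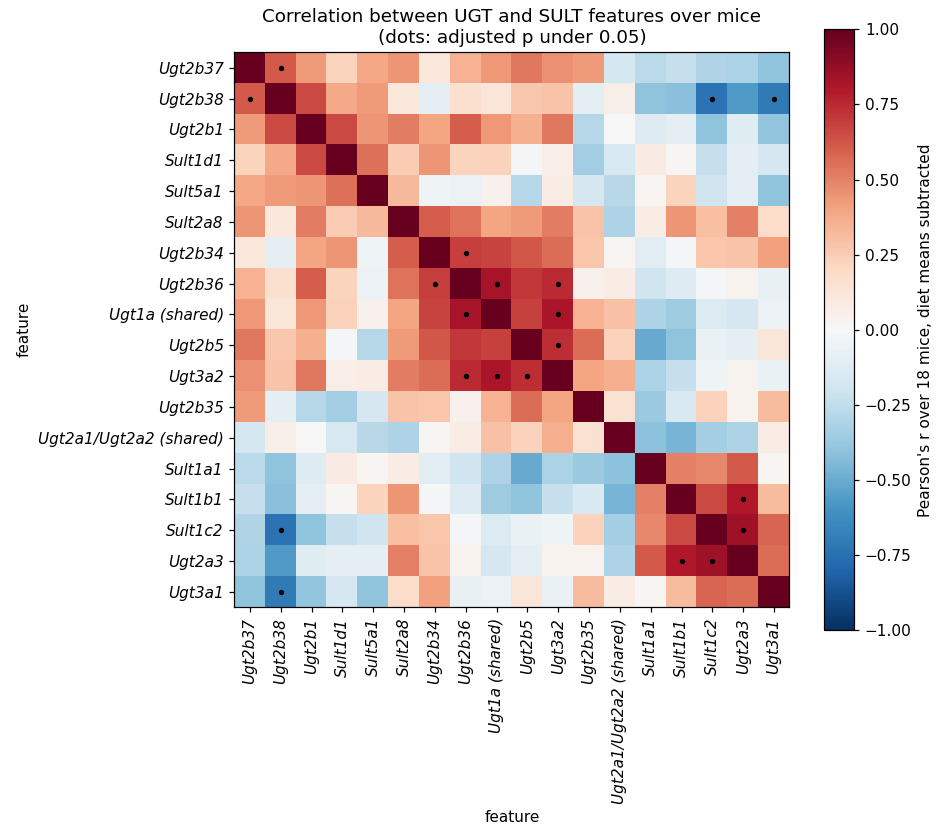
Pearson's r between the 18 tested features over 18 mice, with diet means subtracted (colour), where dots mark an adjusted p under 0.05. On these scaled values a block of UGTs around Ugt1a (shared) and Ugt2b36 is positive, and r was lower in several of its pairs after quantile normalization. Ugt2a3 goes with Sult1b1 and Sult1c2, and Ugt2b38 is negative with Ugt3a1 and Sult1c2.

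Genes that supply, move or remove the substrates and products of these enzymes were set beside them for 1% against control, and 0 genes of these lists were called by limma. The counts for these and the later lists stand beside 52.7% of all features with a change below 0. By limma 4.74% of all features were lower and 4.01% higher at an unadjusted p under 0.05. For UDP-glucuronic acid supply, 2 of 4 tested genes had a change above 0, 1 of them with an unadjusted p under 0.05. Slc35d1, which carries UDP-glucuronic acid into the endoplasmic reticulum, averaged 10.18 ± 0.32 at 1% and 9.85 ± 0.06 in control livers, with 5 of 6 mice at 1% above all controls (change 0.33 ± 0.12, adjusted p = 0.423). Ugdh, which makes UDP-glucuronic acid, had a change of 0.34 ± 0.17 (adjusted p = 0.589). For PAPS and sulfate supply 7 of 8 tested genes had a change below 0, with a median of -0.17 beside -0.01 for all features, and 2 had such a p. The sulfate transporter gene Slc26a1 had -0.50 ± 0.21 and the PAPS transporter gene Slc35b2 -0.32 ± 0.15 (adjusted p = 0.509 and 0.554). Of 3 tested genes for hydrolysis of conjugates, Gusb (beta-glucuronidase) had -0.06 ± 0.11 and Arsa (arylsulfatase A) 0.19 ± 0.18. At 0.05% against control, 4 of the 8 genes for PAPS and sulfate supply had a change below 0 (median 0.004).

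Carriers of organic anions bring such compounds into the hepatocyte or pump their conjugates out. Slc22a7, an organic anion transporter gene, averaged 8.64 ± 0.56 at 1% and 9.89 ± 0.70 in control livers, a change of -1.25 ± 0.32 (adjusted p = 0.29), with 4 of 6 mice at 1% below all controls. Slco1b2, a sinusoidal uptake carrier, had -0.28 ± 0.09 (adjusted p = 0.397), and 4 of 5 tested uptake genes had a change below 0 (median -0.24). Among efflux pumps 4 of 6 had a change above 0 (median 0.18). Abcc4 and Abcc3, which export conjugates into blood, had 0.43 ± 0.16 and 0.40 ± 0.25 (adjusted p = 0.45 and 0.68). Of 12 tested regulators 6 had a change above 0, and 2 on values as deposited. The regulators with the smallest p were Arnt at 0.19 ± 0.13 and Esr1 at -0.25 ± 0.27. Of 8 reporter targets of such regulators 7 had a change above 0, and 6 on values as deposited. Their median change was 0.06, below the median SE of a change over all features, 0.13. Cyp4a14, a target of PPARA, had 2.05 ± 0.69 (adjusted p = 0.414), and Tiparp, a target of the aryl hydrocarbon receptor, had -0.26 ± 0.16. In the other comparisons Ppara had the smallest p of the regulators. Its change was 0.76 ± 0.17 for 0.05% against control and -0.75 ± 0.17 for 1% against 0.05%. Neither was called (limma, adjusted p = 0.4625 and 0.246).

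Several UGTs and SULTs are known to differ between male and female mouse livers, so genes with a known sex bias were read as well. Of 7 tested female-biased genes 4 had a change above 0 at 1% against control, with Cyp4a14, which is in this list too, and Fmo2 (0.37 ± 0.15, adjusted p = 0.481) having the smallest p. Of 7 tested male-biased genes 6 had a change below 0, with a median of -0.17, and 4 did so after quantile normalization. Those with the smallest p were Cyp2u1 at -0.28 ± 0.15 and Slco1a1 at -0.17 ± 0.15, which is in the list of uptake genes too.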

How the data were processed

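Total RNA of each liver was labelled with biotin using a 3′ in vitro transcription kit and hybridised to an Affymetrix mouse array, per the labels' protocols. The deposited values are linear intensity values, 1 per probe set and array, and which software and scaling the authors applied is not given in the sources used here. Of 45101 probe sets, 64 were controls, 34945 carried 1 gene symbol, 932 several and 9160 none in the platform annotation. Because the deposited intensity values were not on a common scale, each array was scaled to a common 75th percentile of its non-control probe sets. The deposited values, once scaled in this way, were turned to log2 after adding 16. For each gene the brightest probe set naming it alone was read, and shared UGT probe sets were kept and marked. Features with a mean above the 40th percentile, a log2 value of 4.689, were tested. limma 3.58.1 under R 4.3.3 (lmFit and eBayes) was fitted to 3 diet means with 15 residual and 3.912 prior degrees of freedom, two-sided. The median SE of a change was 0.13, and the number of arrays limits this precision. Replicates carry numbers in the labels, but the deviations of same-numbered mice correlated at -0.452 to 0.331, over 0.1 in at most 2 of 6 pairs, so the numbers were not taken to pair mice. Correlations used values minus diet means, 100000 permutations within diets and adjustment over the 153 pairs, and were run with Python 3.11.15, numpy 2.4.6 and scipy 1.17.1. The fit and the correlation test were tested on simulated data.

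The members and gene lists, and the tests, were chosen with earlier results of these data known, in which Slc22a7, Cyp4a14, Fmo2, Tead1 and neutrophil markers already appeared, so these give no independent support. Every member is named. Full ranges are given for the 4 members with the smallest p in each comparison and for a preset set of quercetin-related enzymes. For 1% against control the 2 genes with the smallest p are named from each pathway list, and Ppara was added after its values were seen. Among correlations the 5 pairs with the smallest p are named, and the other pairs with an adjusted p under 0.05 were added. The 2 negative pairs and single mice described with them were chosen after their values were seen. The alternatives were values as deposited, quantile normalization, a median shift, 1 in place of 16 before log2, a filter at the 60th percentile or none, averaging all probe sets of a gene, replicate number as a block, only the 12 arrays of 2 diets, eBayes with trend and robust, array weights, and leaving out each array in turn.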

Additional observations from a re-analysis of the deposited data

Results flagged for a closer look

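In groups of 6 mice, a value that stood apart from the others of its diet (a gap to its neighbour over Dixon's 95% critical value for 6 mice) was found in 3 of 54 sets of a member and a diet. Chance gives about 5% of sets. Ugt2b38 was 6.63 in control replicate 3, and the next lowest control value was 9.27. The same mouse had 10.41 in Ugt3a1, above the next control value of 10.03. Sult1d1 was 11.32 in replicate 3 of the 0.05% diet, above the next value of 10.75.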

How the results depend on the processing

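No member was called in any of the 3 comparisons under 11 alternatives and 18 fits that each left out 1 mouse, or in the F-test under 10 alternatives and the same 18 fits. The F-test was not run with only the 12 arrays compared. The count of all called features was small and unstable. For 1% against control, where it was 1, it was 0 on values as deposited, with the mean of probe sets and with only the 12 arrays compared, and 0 to 3 when a mouse was left out. For 0.05% against control it was 0, and 0 to 1 when a mouse was left out. For 1% against 0.05% it was 0, 10 with only the 12 arrays compared, and 0 to 1 when a mouse was left out. For the F-test it was 1, but 0 on values as deposited, after the median shift, with the mean of probe sets and with the replicate block, and 0 to 3 when a mouse was left out. The replicate block changed no member's call. The number of correlated pairs was 10, 44 on values as deposited and 7 after quantile normalization. The cause of these differences was not tested. Of the 54 member changes, 17 turned sign under at least 1 setting, and 43 turned sign or moved by over 1.5 times when some single mouse was left out. Apart from Ugt2b38 at 1% against control (0.29, and -0.23 without control replicate 3), those that turned sign were at most 0.103 in size. The turns among changes set by the naming rule were the following. For Ugt1a (shared), 1% against control was 0.00158 after quantile normalization and 0.0124 with the mean of probe sets, 0.05% against control was 0.0486 and 0.0202 under the same settings, and 1% against 0.05% spanned -0.0536 to 0.00238 when a mouse was left out. For Ugt2b5, 1% against control was 0.0343 after quantile normalization and -0.0531 to 0.00132 when a mouse was left out, and 1% against 0.05% was -0.0155 on values as deposited. For Sult1a1, 0.05% against control was 0.00242 on values as deposited, 0.0671 after quantile normalization, 0.00506 after the median shift and 0.0493 with array weights, and -0.0986 to 0.0767 when a mouse was left out. When a mouse was left out, Sult1b1 at 0.05% against control spanned -0.0935 to 0.181 and Sult1d1 at 1% against 0.05% spanned -0.157 to 0.0159. Gusb at 1% against control was 0.0266 with the mean of probe sets. Among the features with an unadjusted p under 0.05 for 1% against 0.05%, 59.3% of 1167 were higher, and 34% of 708 on values as deposited. Between diets, changes near the median SE could not be resolved with 6 mice each, and dim features carry little signal over background.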
